A study of Homo sapiens with 6 samples.

Results

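Collagens are the main structural proteins of the extracellular matrix, and each is a trimer of alpha chains wound into a triple helix. Every chain has its own gene, named COL, a type number, A and a chain number, so that COL4A1 encodes the alpha 1 chain of type IV collagen. The types differ in what they build. Fibrillar collagens form rope-like fibrils, fibril-associated collagens decorate them, type IV forms the sheet of the basement membrane under epithelia, type VII anchors that sheet to the tissue beneath, type VI forms beaded filaments, and transmembrane collagens sit in the cell surface. In a carcinoma, fibrillar collagen comes largely from stromal fibroblasts, whereas epithelial cells make much of the basement membrane themselves.

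The members were all genes of the count table whose symbol has this form, 44 of 78932 genes. RNA-seq was done on 6 cultures of T24, an established line from a human bladder (urothelial) carcinoma, of which 3 were transfected with a non-targeting siRNA (siNC) and 3 with siRNA against TRIM28 (siTRIM28), a nuclear corepressor and TRIM family ubiquitin ligase. All 6 were labelled as T24, as biological replicates and as 1 batch, and the labels do not say which TRIM28 siRNA was used. Levels are given as CPM, the count of a gene scaled to library size, and TRIM28 itself fell to 8.87 ± 0.658 CPM from 104 ± 4.09 in siNC (SD, n = 3 each). The authors deposited raw read counts per gene, which summed to 12989362 to 13942383 per siNC culture and to 11712623 to 14018052 per siTRIM28 culture.

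A collagen gene was called expressed where it had 10 or more counts in 3 or more of the 6 libraries. This held for 19 of the 44 genes (43.2%), against 23.4% of the whole table, and the other 25 were called silent. CPM values are normalized by the TMM method, which corrects for library composition, and given as mean ± SD over 3 cultures. Log2 fold changes are siTRIM28 against siNC with their standard error (SE), and adjusted p-values come from the quasi-likelihood test of edgeR, corrected by the Benjamini-Hochberg method over all 18474 genes tested. Replicates were not equally far apart, since siNC 1 and 2, and siTRIM28 2 and 3, were closer to each other than to the third culture of their group (chi-square per degree of freedom of 1.08 and 1.22, against 4.17 to 6.25 for the other pairs). Values without 1 library are given below where they changed a call.

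T24 was first compared with the markers of its labelled cell type. The simple-epithelial keratins KRT8 (104 CPM) and KRT18 (86.1 CPM) were present in siNC, whereas E-cadherin (CDH1) had 3 counts over all 6 libraries, UPK1B had 0, UPK3A had 1, UPK2 had 21 and GATA3 had 33. The uroplakin UPK1A had 166 counts and passed the filter through the siTRIM28 group. It had 0.874 ± 0.490 CPM in siNC and 3.41 ± 0.658 in siTRIM28. Thus most but not all defining markers of differentiated urothelium were at or near 0. Of 8 fibroblast markers, FAP and PDPN were at 0, DCN, LUM and DPT had at most 4 counts in all, and the summed level of the list, nearly all of it THY1, was 28.3 to 29.97 CPM in siNC and 28.7 to 31.8 CPM in siTRIM28. The endothelial list summed to at most 1.35 CPM in any culture, with CDH5 and KDR at 0.

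The 19 expressed collagens comprised 6 of 11 fibrillar, 4 of 6 basement membrane network, 3 of 6 beaded filament, 3 of 4 transmembrane, 1 of 10 fibril-associated and 1 of 2 multiplexin genes and the anchoring fibril gene. Per kilobase of exon, COL6A2 had the highest level in siNC (13.7 ± 0.593 CPM per kb), followed by COL23A1 (10.3 ± 0.318), COL4A2 (4.92 ± 0.235) and COL18A1 (4.59 ± 0.206). COL4A2 and COL18A1 differed by little more than their SDs, while the other neighbours in this order lay well apart. The exon length of the table joins the exons of all transcripts of a gene and exceeds that of one mRNA, so levels between genes are approximate. Summed over all 44 genes, collagen transcripts amounted to 460.0, 456 and 479.6 CPM in the siNC cultures and 529, 553 and 543 CPM in the siTRIM28 cultures. The groups did not overlap, and the means differed 1.16-fold (465 ± 12.8 against 542 ± 11.9 CPM, p = 0.1 in an exact two-sided permutation test, the smallest p that 3 against 3 cultures allow). In RNA from a whole culture, a change in the share of cells that express a gene and a change in RNA per cell cannot be told apart. COL4A1, COL4A2 and COL6A2 together held 46.9 ± 0.566% of collagen counts in siNC and 48.9 ± 1.46% in siTRIM28.

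**Figure D1:**
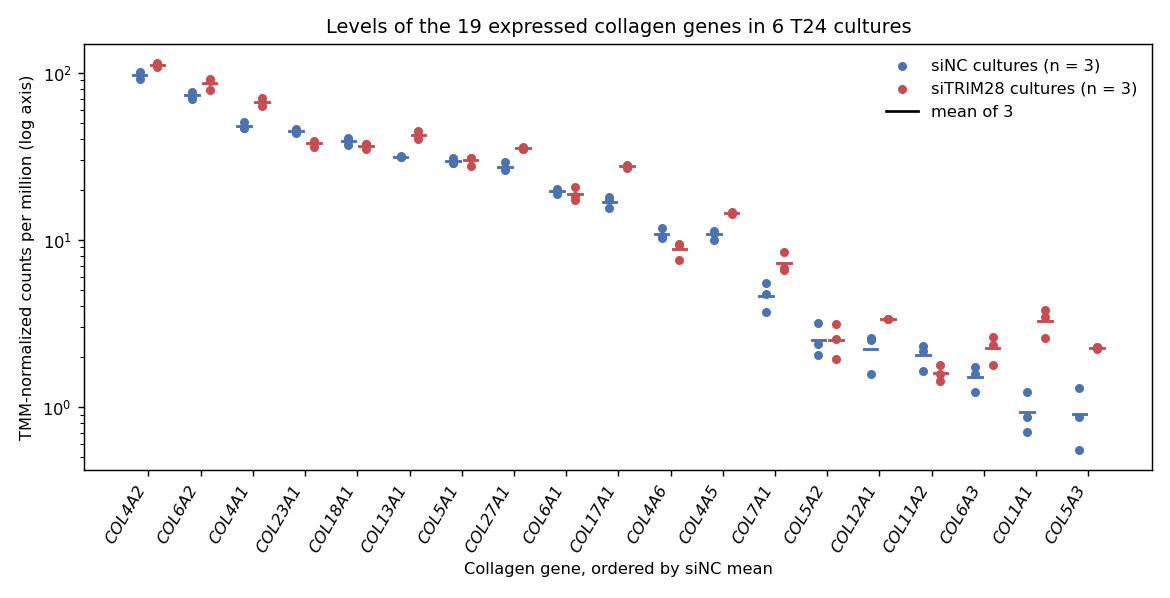
TMM-normalized CPM on a log axis for each of the 19 expressed collagen genes, one point per culture (blue siNC, red siTRIM28, n = 3 each) and a bar at each mean, in the order of the siNC mean and not corrected for gene length. The red points lie wholly above the blue points in 12 genes and wholly below in COL23A1 and COL4A6, and the genes at the right, from COL5A2 on, lie under 4 CPM.

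Among the 19 expressed genes, 11 rose (57.9%) and 2 fell (10.5%) at an adjusted p under 0.05, and 6 did not pass. Among all genes tested, 41.8% passed, with 21.3% higher and 20.5% lower in siTRIM28. The 3 cultures of each group did not overlap in 12 collagen genes that were higher and 2 that were lower, of 19, against 26.3% and 25.7% of all genes tested. The median log2 fold change was 0.36, against 0.015 over all genes tested, and 13 of 19 values were positive. COL1A1 and COL5A3 reached the expression filter through the siTRIM28 group, and with 10 or more counts required in every library 9 genes rose and the median was 0.24. Most rises were small, since only 5 of the 11 exceeded a log2 fold change of 0.58.

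**Figure D2:**
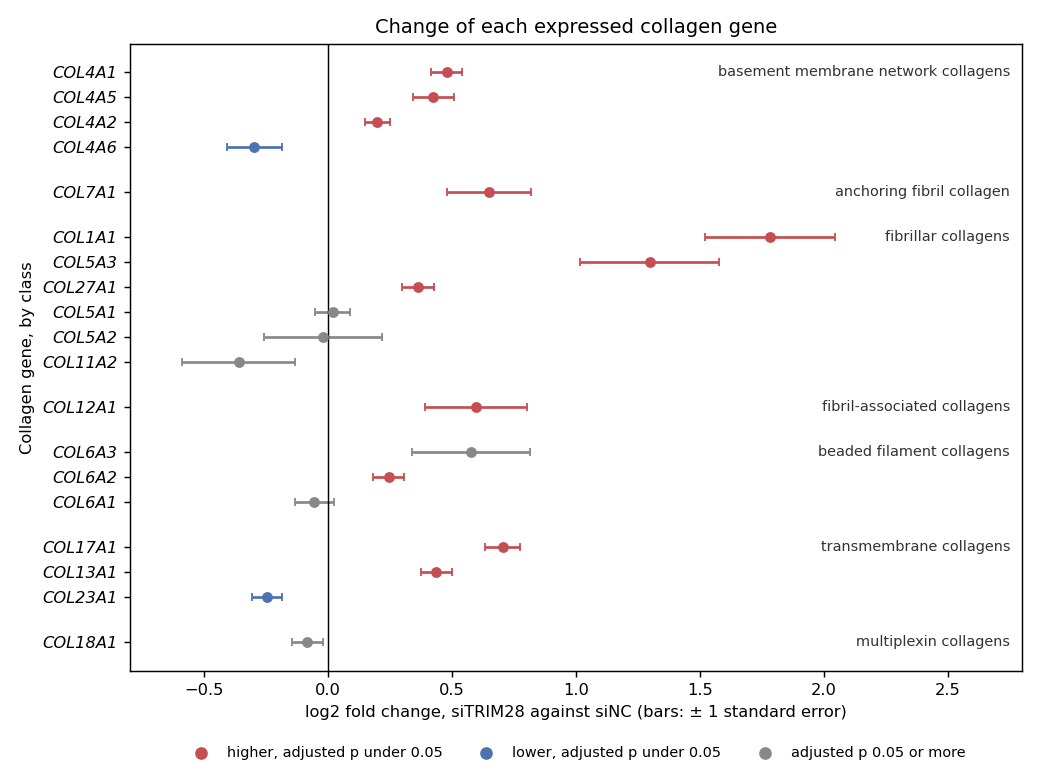
Log2 fold change (siTRIM28 against siNC) of each expressed collagen gene, grouped by class, with bars of ± 1 SE. Red marks the 11 genes that rose, blue the 2 that fell and grey the 6 that did not pass. COL1A1 (1.78) and COL5A3 (1.30), which reached the filter through the siTRIM28 group, lie farthest to the right.

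Type IV collagen, the network of the basement membrane, is built from 6 chains whose genes lie head to head in 3 pairs. Of these, COL4A1, COL4A2 and COL4A5 rose, COL4A6 fell, and the COL4A3 and COL4A4 pair was silent with 1 and 5 counts in all. COL4A1 (ENSG00000187498, GRCh38 chromosome 13, 110148963 to 110307157, minus strand) had 47.0, 46.6 and 50.6 CPM in siNC and 62.8, 70.8 and 67.2 CPM in siTRIM28. All siTRIM28 cultures lay above all siNC cultures, and the log2 fold change was 0.48 (SE 0.0631, adjusted p = 9.32e-05). Its partner COL4A2 (ENSG00000134871, 110305812 to 110513024, plus strand), whose chain joins the COL4A1 chain in the common type IV trimer, had 98.3, 91.9 and 101 CPM in siNC and 108, 112 and 114 CPM in siTRIM28. The groups again did not overlap, but the log2 fold change was only 0.20 (SE 0.0507, adjusted p = 0.00828). This call was lost without siNC 2 (0.15, adjusted p = 0.0774), without siTRIM28 3 (0.17, adjusted p = 0.0542) and with each close pair summed (0.17, adjusted p = 0.0956). The annotated spans of these 2 genes overlap by 1346 bases on opposite strands.

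The X-linked pair moved in opposite directions. COL4A5, the chain lost in most Alport syndrome, had 10.0, 11.3 and 11.1 CPM in siNC and 14.6, 14.4 and 14.3 CPM in siTRIM28. COL4A6, which forms a trimer with it in some basement membranes, had 10.2, 11.7 and 10.5 CPM in siNC and 9.43, 9.29 and 7.60 CPM in siTRIM28. Neither gene's groups overlapped. COL4A5 rose by 0.42 (log2 fold change, SE 0.0812, adjusted p = 0.00134), and COL4A6 fell by 0.30 (SE 0.111, adjusted p = 0.0496). The call of COL4A6 sat at the threshold. Its log2 fold change stayed negative under all 16 alternatives (-0.38 to -0.22), but the call was lost under 11 of them, with an adjusted p of up to 0.174, including without each siNC culture in turn (adjusted p of 0.0664, 0.174 and 0.0859), without siTRIM28 2 (0.0645) and without siTRIM28 3 (0.155).

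The bases between the head-to-head starts are shown because each pair shares them as a promoter region while its chains changed unequally. They were read from RefSeq promoter windows of GRCh38.p14 on the plus strand, with the gene of the minus strand to the left. Capitals mark matches on either strand to 3 promoter motifs. The GC box was searched as GGGCGG. The CCAAT box was searched by its own letters, and the TATA box as TATAAA. The first is the whole stretch between both starts, and the second the 121 bases that both windows cover of 379 between the starts.
COL4A1 and COL4A2, chr13:110307158-110307283: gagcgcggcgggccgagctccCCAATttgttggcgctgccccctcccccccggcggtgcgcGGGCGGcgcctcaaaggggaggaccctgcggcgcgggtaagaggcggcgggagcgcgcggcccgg
COL4A6 and COL4A5, chrX:108439588-108439708: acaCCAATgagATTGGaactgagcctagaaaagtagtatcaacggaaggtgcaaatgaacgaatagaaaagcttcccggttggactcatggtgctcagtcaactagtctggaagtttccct
The COL4A1 and COL4A2 stretch was 80.2% G and C and held 1 GC box and 1 CCAAT box, whereas the COL4A6 and COL4A5 stretch was 44.6% G and C and held 2 CCAAT boxes, 1 on each strand, and no GC box. Neither held TATAAA. Promoter windows were found for 32 of the 44 collagen genes, 16 expressed and 16 silent. The genes without one were COL6A1, COL5A2, COL1A1, COL9A3, COL22A1, COL3A1, COL14A1, COL1A2, COL8A1, COL20A1, COL2A1 and COL6A5. RefSeq starts can differ from the ends of the spans in the count table, as for COL4A2. A GC box was in 11 of the 16 expressed (68.8%) and 7 of the 16 silent genes (43.8%), against 45.0% of all 35116 windows. A CCAAT box was in 37.5%, 25.0% and 34.6% of these sets, and TATAAA in 25.0%, 12.5% and 11.5%. The median G and C content was alike in expressed and silent collagen windows (66.2% and 66.8%, against 58.7% of all). These matches are of letters and do not show that a factor binds.

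COL7A1, the anchoring fibril collagen that ties the basement membrane to the tissue beneath, had 4.75, 3.68 and 5.49 CPM in siNC and 6.64, 8.45 and 6.76 CPM in siTRIM28. The groups did not overlap, and the log2 fold change was 0.65 (SE 0.169, adjusted p = 0.00898), on 51 to 100 counts per library.

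Of 11 fibrillar collagens 6 were expressed, and 3 of them rose, 2 of these from levels near the filter. These 2, COL1A1 and COL5A3, reached the filter through the siTRIM28 group. COL1A1, the alpha 1 chain of type I collagen, had 17, 12 and 9 counts in siNC and 36, 41 and 45 counts in siTRIM28. These are 0.932 ± 0.265 and 3.28 ± 0.635 CPM, with no overlap, and COL1A1 had the largest rise of the 19 genes (log2 fold change 1.78, SE 0.264, adjusted p = 2.21e-04). COL1A2, the other chain of type I collagen, had 4 counts over all 6 libraries. COL3A1, the type III chain of loose connective tissue, had 6, and COL2A1, of cartilage, had 2.

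COL5A3, a minor chain of type V collagen, which sits in the core of type I fibrils, had 18, 12 and 7 counts in siNC and 31, 27 and 27 in siTRIM28, without overlap (log2 fold change 1.30, SE 0.280, adjusted p = 0.00292). The main chains of the same type did not pass the test. COL5A1 had 28.65, 31.0 and 28.9 CPM in siNC and 31.1, 31.0 and 27.5 CPM in siTRIM28, overlapping groups, and its log2 fold change of 0.017 (adjusted p = 0.867) had a 95% interval from -0.14 to 0.17. COL5A2 had 2.53 ± 0.579 and 2.53 ± 0.598 CPM (adjusted p = 0.949), with a wider interval from -0.54 to 0.50 at its 26 to 44 counts per library. COL27A1, a fibrillar collagen of cartilage and other tissues, rose from 26.1, 26.9 and 29.3 CPM to 34.8, 36.1 and 34.8 CPM (log2 fold change 0.36, SE 0.0655, adjusted p = 9.29e-04), again without overlap. COL11A2, a type XI chain of cartilage fibrils, had 2.04 ± 0.348 CPM in siNC and 1.59 ± 0.170 in siTRIM28, which did not pass (log2 fold change -0.36, adjusted p = 0.229, interval -0.86 to 0.14).

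Of 10 fibril-associated collagens, which coat and link fibrils, COL12A1 alone was expressed. It had 22, 36 and 32 counts in siNC and 47, 40 and 40 in siTRIM28, and the groups did not overlap in CPM. It rose by 0.60 (log2 fold change, SE 0.206, adjusted p = 0.0359). The call was lost without siNC 1, the lowest culture (0.39, adjusted p = 0.144), without siTRIM28 2 or 3 (adjusted p = 0.0739 and 0.0826), in DESeq2 (adjusted p = 0.116) and with the close pairs summed (adjusted p = 0.0589).

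Type VI collagen forms beaded microfilaments from 3 chains. COL6A2 (ENSG00000142173, chromosome 21, 46098112 to 46132848) had 70.1, 72.9 and 76.4 CPM in siNC and 79.1, 91.8 and 88.8 CPM in siTRIM28. The groups did not overlap, although the lowest siTRIM28 culture was close to the highest siNC culture, and the log2 fold change was 0.24 (SE 0.0634, adjusted p = 0.00902). It did not pass without siNC 1 (0.21, adjusted p = 0.0664), without siTRIM28 3 (0.21, adjusted p = 0.0539) or with the close pairs summed (0.20, adjusted p = 0.116). COL6A1, whose chain is part of every type VI trimer, had 19.5 ± 0.747 CPM in siNC and 18.7 ± 1.75 in siTRIM28, with overlapping groups (adjusted p = 0.608, interval of the log2 fold change -0.23 to 0.12). COL6A3, the longest chain, had 22, 17 and 22 counts in siNC and 33, 31 and 21 in siTRIM28. Its CPM did not overlap, though only just, and the log2 fold change of 0.58 (SE 0.238) had an adjusted p of 0.0718, and without siTRIM28 3 it passed (0.70, adjusted p = 0.0478). COL6A5 and COL6A6 had 0 and 4 counts in all.

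Transmembrane collagens held both a clear rise and a clear fall. COL17A1 (ENSG00000065618, chromosome 10, 104031286 to 104085826), the hemidesmosome collagen by which basal epithelial cells grip the basement membrane, had 18.0, 15.5 and 17.2 CPM in siNC and 27.1, 28.0 and 27.6 CPM in siTRIM28. The groups lay far apart, and the 1.63-fold rise of COL17A1 had the lowest adjusted p of the 19 collagen genes tested (log2 fold change 0.70, SE 0.0717, adjusted p = 1.24e-05). COL13A1, found at cell-matrix and neuromuscular junctions, rose from 31.2, 31.1 and 31.7 CPM to 45.0, 40.0 and 42.1 CPM (log2 fold change 0.44, SE 0.0637, adjusted p = 2.00e-04). An opposite-strand gene with no symbol (ENSG00000289193) lies within COL13A1 and had 275 counts over the 6 libraries, against 2872 for COL13A1. COL23A1, a further membrane collagen that is shed from the cell surface, had 43.7, 44.3 and 46.3 CPM in siNC and 38.4, 35.9 and 38.8 CPM in siTRIM28. All siTRIM28 values lay below all siNC values, at 0.843 of the siNC level (log2 fold change -0.25, SE 0.0612, adjusted p = 0.00684), and this fall passed under all 16 alternatives. COL25A1, the fourth of this class, was at 0.

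COL18A1, a basement membrane multiplexin whose end fragment is endostatin, had 38.9 ± 1.74 CPM in siNC and 36.7 ± 1.35 in siTRIM28, with overlapping groups (adjusted p = 0.315, interval of the log2 fold change -0.22 to 0.054). The opposite-strand gene SLC19A1 shares 20149 bases of its span with COL18A1 and had 1104 counts, against 2951 for COL18A1. The sources used here do not state whether counting used strand, so reads in such shared stretches cannot be told apart.

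The 25 silent genes had a median of 5 counts over all 6 libraries together, and 24 of them stayed under 10 counts in every library. COL8A2, COL25A1 and COL6A5 were at 0 in all 6, where a count of 0 in a library allows a level of up to 0.214 to 0.253 CPM (3 counts). COL16A1, a fibril-associated collagen, lay just outside the filter with 6, 4 and 8 counts in siNC and 13, 13 and 7 in siTRIM28, which overlap. The expressed genes with the fewest summed counts were COL5A3 and COL11A2, with 122 and 143 counts in all. After COL16A1, the silent genes with the most counts were COL9A3 (19 counts in all), COL22A1 (16), COL21A1 (15), COL24A1 (13) and COL11A1 (10). Of the 16 counts of COL22A1, 9 came from siTRIM28 3. COL9A2 (9), COL26A1 (8), COL14A1 (6), COL19A1 (5), COL10A1 (5), COL8A1 (4), COL28A1 (4), COL15A1 (3), COL20A1 (2) and COL9A1 (2) had under 10. No fold change is given for any of them.

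Because alpha chains work as trimers, the ratio of partner chains within a culture was compared between groups, for the 6 of 12 listed pairs in which both genes were expressed. The COL4A5 to COL4A6 ratio shifted by 0.72 on the log2 scale, from 0.779 to 1.29 per kilobase, and the COL4A1 to COL4A2 ratio by 0.28, from 0.654 to 0.795. The COL5A1 to COL5A3 ratio fell by 1.24, from 19.9 to 8.04, and the COL6A1 to COL6A3 ratio by 0.59, from 50.1 to 32.3. In these 4 pairs the groups did not overlap (p = 0.1 each in the exact two-sided permutation test, adjusted p = 0.15 over 6 pairs), so none could pass 0.05 in this design. COL5A3 reached the filter through the siTRIM28 group, where it was higher, so the fall of its ratio is not independent support. COL6A3 had 17 to 33 counts per library and was itself not called. The COL6A1 to COL6A2 ratio differed by -0.30 with overlapping cultures (exact permutation p = 0.2), and the COL5A1 to COL5A2 ratio by 0.019 (exact permutation p = 1), with a spread of 0.327 and 0.415 (SD) in the groups that leaves equal chains undecided.

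**Figure D3:**
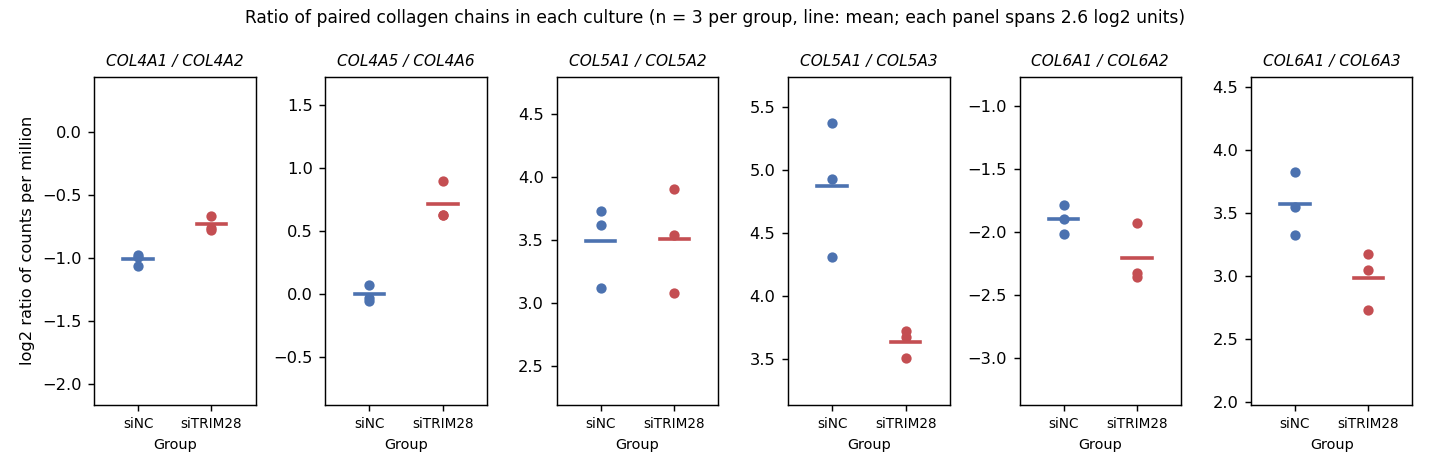
Log2 ratio of the CPM of 2 partner chains in each culture (blue siNC, red siTRIM28, n = 3 each, bars at means) for 6 pairs, with every panel spanning the same 2.6 log2 units. COL4A5 to COL4A6 and COL4A1 to COL4A2 are higher in all siTRIM28 cultures, COL5A1 to COL5A3 and COL6A1 to COL6A3 are lower in all, and the other pairs overlap.

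The microRNAs of the miR-29 family are known to repress many collagen transcripts through their shared seed, bases 2 to 8, which is in capitals in the mature sequences (RefSeq, GRCh38.p14) because it defines the site counted here.
hsa-miR-29a-3p: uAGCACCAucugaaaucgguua
hsa-miR-29b-3p: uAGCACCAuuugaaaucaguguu
hsa-miR-29c-3p: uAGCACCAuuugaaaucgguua
The matching letters TGGTGCT were in the longest annotated 3′ UTR (GENCODE v29) of 10 of the 19 expressed collagens (52.6%), against 17.1% of 12120 tested genes with a 3′ UTR, whose median 3′ UTR was 1406 bases, against 1167 in the collagens. COL5A1 held 4 matches, COL5A3 held 3 and COL7A1 held 2, and COL1A1, COL4A2, COL4A5, COL4A6, COL5A2, COL6A3 and COL27A1 held 1 each. Of the genes with a match, 6 rose (of 11 that rose), 1 fell (of 2) and 3 did not pass (of 6). These shares rest on few genes, and the part of miR-29 in the collagen values was not tested. The match to the seed of an siRNA listed in the study, siTRIM28-2 (TCCTGTC), was in 5 of 19 collagens (26.3%) and in 18.0% of 12119 tested genes. These were COL6A2 and COL12A1, which rose, COL23A1, which fell, and COL5A1 and COL11A2, and its part in their values was not tested. The study also lists siTRIM28-1, whose seed was not searched, and the labels do not say which siRNA was used.

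The genes that make, export and bind collagen did not move as one group. The counts that follow are read against 21.3% higher and 20.5% lower among all genes tested, and 41.8% in either direction. Among 17 tested genes of prolyl and lysyl modification and chain folding, 3 rose and 6 fell, with a median log2 fold change of -0.20 (5 rose under upper-quartile scaling). Among the alpha subunits of prolyl 4-hydroxylase, the enzyme that stabilizes the triple helix, P4HA1 rose from 138 ± 1.43 to 219 ± 1.86 CPM (adjusted p = 1.39e-07) and P4HA2 from 72.6 ± 1.20 to 138 ± 8.86 CPM (adjusted p = 1.65e-07), whereas P4HA3 did not pass (63.0 ± 3.06 and 65.5 ± 14.9 CPM, adjusted p = 0.728). The beta subunit P4HB, also known as protein disulfide isomerase, fell from 379 ± 4.96 to 204 ± 2.24 CPM (adjusted p = 1.51e-08). SERPINH1, the collagen chaperone HSP47, had 3 counts over all 6 libraries and was not tested. Whether reads of SERPINH1 were lost in alignment or counting was not tested, so this value does not show that the chaperone was absent.

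Among 10 genes of procollagen export, 2 rose and 3 fell. MIA3 (TANGO1), which loads procollagen at endoplasmic reticulum exit sites, rose by 0.41, whereas KLHL12, an adaptor for the ubiquitin mark that enlarges COPII coats, fell by 1.49 (26.9 ± 2.54 to 9.63 ± 0.967 CPM) and the coat GTPase SAR1A by 0.25 (adjusted p = 0.0417). Of 8 tested genes of processing and cross-linking, BMP1, the procollagen C-proteinase, rose by 0.27 (adjusted p = 0.0326, and not in DESeq2) and LOXL2, a cross-linking oxidase, fell from 349 ± 5.45 to 248 ± 11.8 CPM. LOX had 26 counts in all and was not tested.

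Of 7 tested collagen receptors, 1 rose and 2 fell. ITGA2, the collagen-binding integrin alpha 2, rose from 9.60 ± 1.52 to 17.8 ± 0.987 CPM (adjusted p = 4.21e-05, log2 fold change 0.89), while its partner ITGB1 fell by 0.16 and the receptor kinase DDR2 by 0.39. DDR1 did not pass (11.3 ± 0.453 and 10.7 ± 0.432 CPM, adjusted p = 0.546). Among 6 tested genes of collagen degradation, MMP14, a membrane collagenase, fell by 0.36 and its regulator TIMP2 by 0.40. MMP1, the interstitial collagenase, named here after its values were seen, rose from 1.98 ± 0.504 to 5.58 ± 1.11 CPM (adjusted p = 2.08e-04, log2 fold change 1.50). Of 4 tested fibril-binding proteins SPARC rose by 0.29 and MATN2 fell by 0.45 (not called in DESeq2), and DCN, LUM, BGN and FMOD, the small proteoglycans of fibrils, had at most 4 counts each.

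The other basement membrane chains moved mostly upward, with 8 of 12 tested genes higher and none lower (4 did not pass), against 21.3% higher and 20.5% lower among all genes tested, and a median log2 fold change of 0.40, near that of the collagens. LAMB3, the beta chain of laminin-332 to which COL17A1 binds, rose from 56.8 ± 0.320 to 98.9 ± 7.66 CPM (adjusted p = 1.22e-06, log2 fold change 0.80), AGRN (agrin) rose by 0.49 and LAMA5 by 0.43. In DESeq2, 5 of these genes were higher. The lists of TGF-beta genes and of epithelial markers gave the same comparison for a known inducer of collagen and for cell identity. Among 11 tested TGF-beta genes 4 rose and 3 fell. TGFB1 did not pass (125 ± 2.24 and 124 ± 7.96 CPM, adjusted p = 0.927), TGFBR2 rose by 0.70, and the target genes TGFBI and CCN2 (CTGF) fell by 1.17 and 0.43. Of 12 listed epithelial markers 5 were tested, and 4 of these rose (1 in DESeq2). Their log2 fold changes were 1.94 for UPK1A, 1.01 for TP63, 0.56 for KRT7 and 0.14 for KRT8. The median of the 5 was 0.56. UPK1A (0.874 ± 0.490 CPM in siNC) and TP63 (0.469 ± 0.180 CPM in siNC, adjusted p = 0.04998 in edgeR) reached the filter through the siTRIM28 group. Among untested markers, GATA3 (0.585 to 0.249 CPM), EPCAM (0.397 to 0.217) and KRT19 (0.337 to 0.147) were lower in siTRIM28, at 20 to 33 counts each. UPK2 was alike (0.269 and 0.273 CPM), and the others had at most 3 counts. KRT18 did not pass (adjusted p = 0.210), and the summed level of that list was 192 to 198 CPM in siNC and 212 to 219.7 CPM in siTRIM28, and its part in the collagen values was not tested.

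**Figure D4:**
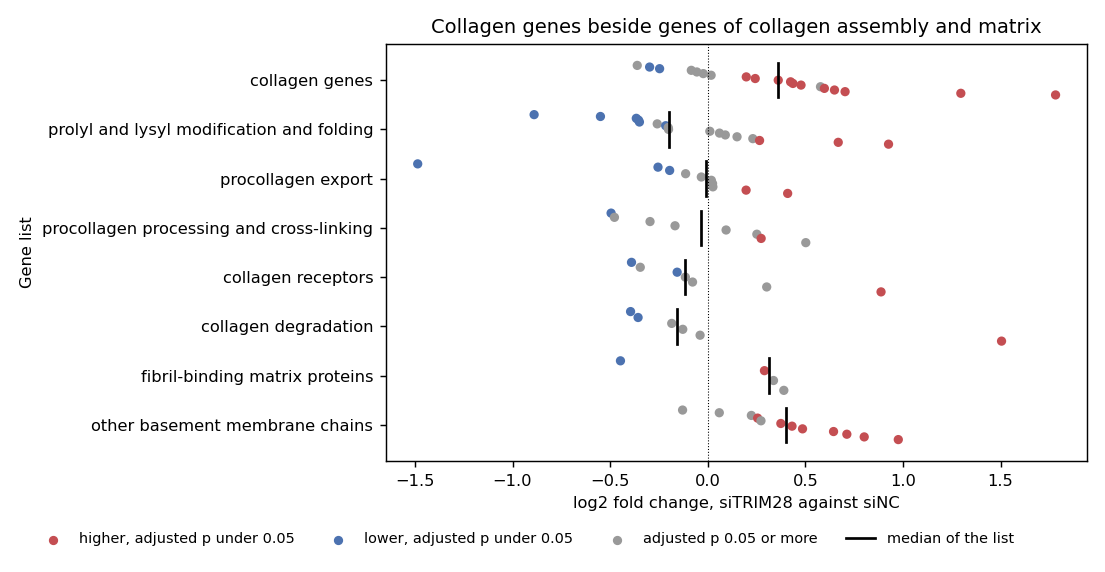
Log2 fold change (siTRIM28 against siNC) of each tested gene of the collagen list and of 7 lists of collagen assembly and matrix genes, one point per gene, coloured by call, with a bar at each median. The medians of the collagen genes (0.36), the other basement membrane chains (0.40) and the fibril-binding proteins (0.31, 4 genes) lie to the right of 0, and those of the other 5 lists lie between -0.20 and -0.0072.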

How the data were processed

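T24 cultures transfected with siNC (n = 3) or siTRIM28 (n = 3) were grouped by their labels. The values deposited by the authors are raw counts, the number of reads on each gene, without normalization. The submitters' processing notes name fastp 0.23.1, STAR 2.7.6a, featureCounts and GRCh38, and the library kit was stranded with poly(A) selection. The annotation release and the strand setting are not given in the sources used here. A second deposited table of RPKM values of the authors' changed genes was not used.

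In R 4.3.3, edgeR 4.0.16 scaled the counts by TMM and its quasi-likelihood test (glmQLFit, then glmQLFTest), with condition as the model, was applied to 18474 genes with 10 or more counts in 3 or more libraries, with Benjamini-Hochberg adjustment and a threshold of 0.05. A 95% interval is the log2 fold change with its t quantile times the SE. Chain ratios were tested by exact permutation of log2 CPM (prior count 2). The common biological coefficient of variation was 0.0733. Floors cover counting error only. The test was first run on simulated data. The labels call the cultures biological replicates without saying how they were kept separate, so p-values measure only the spread between these libraries, which may be technical.

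Every expressed collagen gene is named. From each other list the 3 tested genes with the largest absolute log2 fold change among those called with a mean of 50 or more counts are named, with P4HB, SERPINH1, LOX, BMP1, DDR1, MMP14 and TGFB1. MMP1, P4HA3 and single cell markers other than KRT8 were named after their values were seen. Leukocyte markers were at or near 0 apart from CD68 (348 ± 2.38 and 351 ± 12.1 CPM), which is not limited to leukocytes. The members and lists were chosen with earlier results of these data known. Alternatives were scaling by RLE, upper quartile or total counts, DESeq2 1.42.0, limma-voom (limma 3.58.1), other filters, a replicate block, each library left out, close pairs summed, and, added after seeing the data, only the close pairs. Replicate numbers were not taken as pairs, since deviations of same-numbered cultures correlated by 0.052, -0.012 and 0.037. Exact tests used numpy 2.4.6 under Python 3.11.15, and plots used matplotlib 3.10.9.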

Additional observations from a re-analysis of the deposited data

How the results depend on the processing

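Of the 13 called collagen genes, 9 kept their direction and call under every alternative in which they were tested, and COL4A2, COL6A2, COL4A6 and COL12A1 did not. The count of 11 higher collagen genes moved to 5 with an absolute log2 fold change of 0.58 or more, under which the count over all genes moved from 7723 to 3144. The count of 2 lower genes was 1 under upper-quartile scaling, total counts, DESeq2, limma-voom, 10 or more counts in every library, the close pairs summed and an adjusted p under 0.01, 0 at 0.58 or more, and 1 to 2 when each library was left out. The median of 0.36 was 0.40 under upper-quartile scaling, 0.24 with 10 or more counts in every library, 0.34 with the close pairs summed, 0.40 with only the close pairs, and 0.32 to 0.41 when each library was left out. Upper-quartile scaling moved the median of all genes to 0.049. COL5A1 and COL5A2, which did not pass, changed sign: COL5A1 to -0.027 with only the close pairs and to between -0.013 and 0.060 when each library was left out, and COL5A2 to 0.011 under upper-quartile scaling, to 0.027 with only the close pairs and to between -0.21 and 0.17 when each library was left out. The cause of these moves was not tested.

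With the replicate number as a block, 7910 genes passed, 11 collagen genes rose, 2 fell and the median was 0.36, and no called collagen gene lost its call. At 11712623 to 14018052 counts per library, genes with few counts, such as COL1A1 (9 to 45 per library) and COL5A3 (7 to 31), carry a large sampling error.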
